A study of Mus musculus with 6 samples.

Results

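The mitochondrial ribosomal protein genes are the nuclear genes whose symbols begin with Mrpl (large subunit) or Mrps (small subunit) followed by a digit. Of the 83 such symbols in the GENCODE M21 annotation of GRCm38, 77 had a row in the deposited tables, out of 22824 rows in all. These were 48 Mrpl and 29 Mrps genes. Mrpl33 and 5 pseudogenes were not analysed here. Mrps23, a small-subunit gene, was listed at 0 in all 6 libraries, which can be a failed estimate. The other 76 reached at least 1 FPKM in at least 3 libraries and were tested. FPKM counts sequenced fragments relative to transcript length and to the library's total of mapped fragments.

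The libraries were made from femurs of C57BL/6 mice and sequenced from both fragment ends. The OE group (3 libraries) came from mice carrying the 9.6 kb DMP1-Cre transgene and the R26-Wnt7b allele, described as homozygotes. The Ctrl group (3 libraries) came from littermates with R26-Wnt7b and no Cre. Both groups therefore carry the R26-Wnt7b allele, and the Dmp1 sequence limits Cre mainly to osteocytes and mature osteoblasts. The sources used here give no age or sex. The labels call the femurs free of cartilage and marrow cells and do not tie a library to one animal, so p-values here cover the spread from sample to sample, which may be technical.

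The mitochondrial ribosome translates the messages of mitochondrial DNA, which encode core subunits of the respiratory chain and ATP synthase. Its ribosomal RNAs are transcribed inside the organelle, whereas each of its proteins is made in the cytosol from a nuclear gene and imported. Some of these proteins descend from bacterial ribosomal proteins, and others are found in mitochondria and have no bacterial counterpart. Among bone cells, osteoclasts are known for their many mitochondria.

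Wnt7b, which encodes the secreted ligand that OE mice were built to express, had 2.49, 0.661 and 0.295 FPKM in the OE libraries. It had 0.909 FPKM in the library labelled Ctrl 1, against 0.00833 for Ctrl 2 and 0 for Ctrl 3, so the library labelled Ctrl 1 lies inside the OE range. The difference gave an exact two-sided permutation p of 0.3, where 3 against 3 libraries cannot go below 0.1. Total FPKM ran between 596413 and 775942 and the number of reads is unknown. The summed FPKM of 10 neutrophil markers was 56542 to 158316 in OE and 98053 to 134907 in Ctrl libraries, with no marker at 0, in tissue labelled as cleared of marrow. The summed FPKM of 10 osteoblast and osteocyte markers was 4951, 8825 and 6722 in OE libraries. It was 4567 in the library labelled Ctrl 1, 449 for Ctrl 2 and 511 for Ctrl 3. Col1a1, one of the 10, was listed at 0 in 2 of the 6 libraries. The sums therefore do not rest on the same genes in every library. The OE minus Ctrl log2 difference of Col1a1 was 2.62 (SE 3.60), and 0.01 without the library labelled Ctrl 1. The place of the library labelled Ctrl 1 just under the OE sums is thus uncertain. In bulk tissue, fewer cells of a type and less RNA per cell cannot be told apart.

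The 76 genes spanned a 31.8-fold range of mean FPKM over the 6 libraries. The median gene had 26.6 FPKM, against 11.8 FPKM for all genes tested, and 64 of the 76 lay above that value. There were 9 genes under 10 FPKM, 55 between 10 and 50 FPKM, and 12 above 50 FPKM. Mrps21, a small-subunit protein with a bacterial homologue, was highest, with 158, 214 and 153 FPKM in OE libraries against 208, 162 and 119 FPKM in Ctrl libraries. These values overlapped between the groups, and 3 pseudogenes in the annotation match its transcript closely, so its counting is uncertain. Next in level were Mrpl52 (mean 84.6 FPKM), Mrpl42 (68.8 FPKM), Mrpl18 (60.0 FPKM), Mrps18c (59.6 FPKM) and Mrpl34 (57.5 FPKM). At the low end stood Mrpl47 (5.32 FPKM), Mrpl11 (6.46 FPKM), Mrps26 (6.97 FPKM), Mrpl19 (7.07 FPKM), Mrps31 (7.85 FPKM) and Mrpl1 (8.03 FPKM). Low and high levels occurred in the same structural unit: in the stalk that recruits translation factors, Mrpl12 averaged 39.9 FPKM, Mrpl10, its anchor, 31.4 FPKM and Mrpl11, at the stalk base, 6.46 FPKM. The ribosome holds several copies of the Mrpl12 protein.

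**Figure D1:**
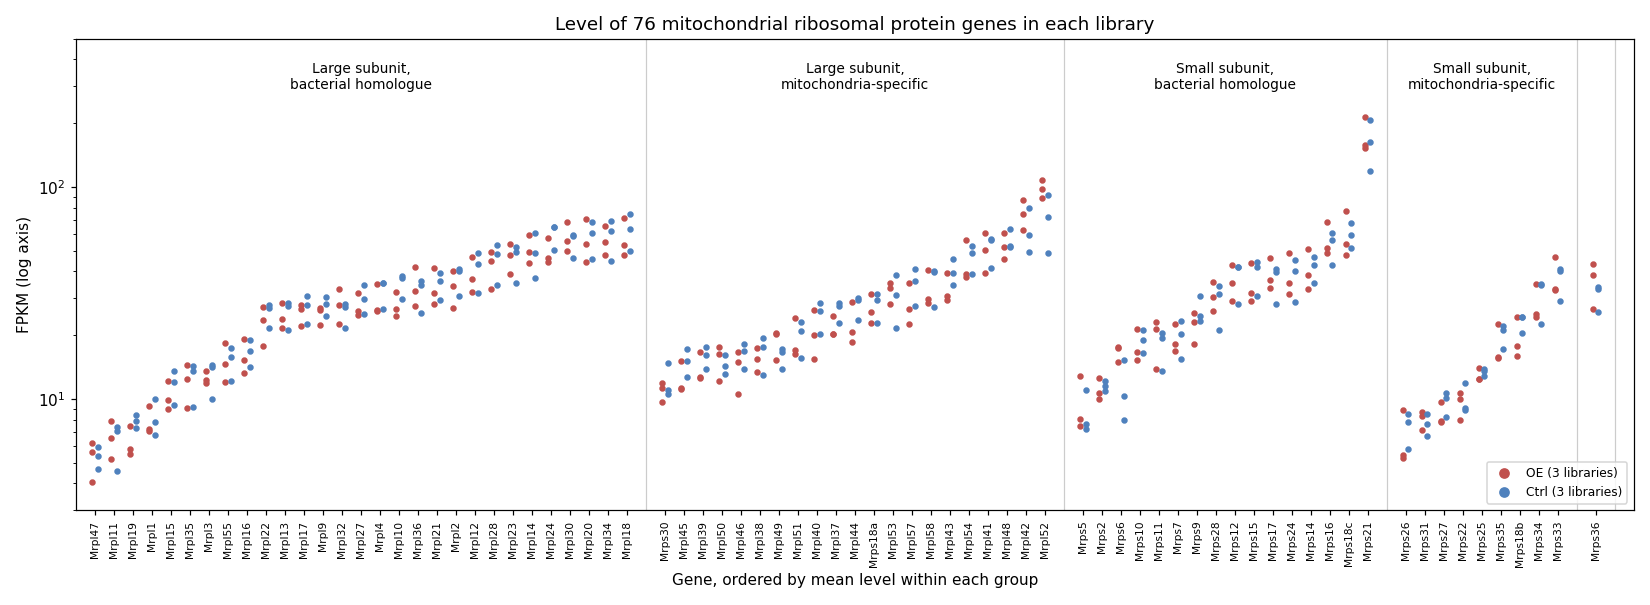
FPKM on a log axis of each of the 76 genes (one position per gene, ordered by mean level within structural groups), with one point per library for 3 OE (red) and 3 Ctrl (blue) libraries. Red and blue points are interleaved for most genes, Mrps21 stands highest at a mean of 169 FPKM, and the unlabelled last panel holds Mrps36.

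By structure, 29 large-subunit genes with a bacterial homologue had a median level of 28.6 FPKM, and 21 large-subunit genes specific to mitochondria had 25.1 FPKM. The 16 small-subunit genes with a bacterial homologue had a median of 33.1 FPKM, whereas the 9 small-subunit genes specific to mitochondria had 13.2 FPKM. Mrps30 and Mrps18a carry small-subunit symbols but their products sit in the large subunit and were counted there. The 3 paralogues that derive from one bacterial protein differed in level. Mrps18c was counted with the genes that have a bacterial homologue, and Mrps18a and Mrps18b, despite that origin, with those specific to mitochondria. Mrps18c had 47.8, 77.1 and 53.8 FPKM in OE against 59.5, 68.0 and 51.4 FPKM in Ctrl libraries. Mrps18a had 22.9, 31.2 and 25.9 FPKM in OE against 31.2, 29.4 and 22.8 FPKM in Ctrl libraries. Mrps18b had 15.9, 24.5 and 17.9 FPKM in OE against 24.4, 24.5 and 20.4 FPKM in Ctrl libraries. In each of the 6 libraries Mrps18c was the highest and Mrps18b the lowest of the 3. Level also moved with transcript length. The 26 genes with the shortest longest transcript (488 to 1138 nucleotides) had a median of 36.0 FPKM, the 24 in the middle (1219 to 2625 nucleotides) 25.8 FPKM, and the 26 longest (2799 to 7300 nucleotides) 17.3 FPKM. The share of length correction in this order was not tested.

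The genes lay on 17 chromosomes, singly for the most part. Of the 77, 23 (29.9%) had a divergent protein-coding neighbour. Such a neighbour starts on the opposite strand, between 1000 bp upstream and 200 bp downstream of the member's own start. This held for 7.92% of all protein-coding genes and 12.0% of those tested. One such neighbour was Sars2, the mitochondrial seryl-tRNA synthetase, whose start lies 172 bp from that of Mrps12. Mrps12 encodes a protein of the decoding centre. A gene on the other strand overlapped 35 of the members and one on the same strand overlapped 12, and the sources used here do not say whether counting used strand.

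Promoters of RefSeq (GRCm38.p6, 250 bases before to 50 after a start) were available for 68 of the genes as 74 sequences, and letter motifs were searched in them on both strands, with overlaps between motifs kept. NRF1, ETS-family proteins such as GABP, and YY1 are transcription factors known for binding near nuclear genes of mitochondrial proteins. The ETS motif CCGGAAG was in 33.8% of the members' promoters, against 17.1% of promoters of genes tested and 8.86% of all promoters in the table. The YY1 motif AAGATGGC was in 16.2%, against 4.42% and 2.75%. The NRF1 motif (GCGCA, any 1 base, GCGC) was in 17.6%, against 9.77% and 4.60%. The letters TATAAA were in 6.76%, against 7.28% and 13.6%. A match is a run of letters and not a shown binding site. The following 5 promoters are shown 5′ to 3′ on the gene's strand, with motif matches in capitals. Mrpl52 (chr14:54426659-54426958, plus strand) and Mrps6 (chr16:92058086-92058385, plus strand) are the members with the most positive differences between OE and Ctrl. Mrpl12 (chr11:120484387-120484686, plus strand) is the stalk gene, and Mrpl45 (chr11:97315466-97315765, plus strand), of the exit tunnel, has 3 NRF1 matches. Mrps12 (chr7:28741772-28742071, minus strand) has the divergent partner. Mrpl52 holds 2 ETS matches on the reverse strand, Mrps6 none of the motifs, Mrpl12 1 NRF1 match, and Mrps12 1 ETS and 1 YY1 match.
Mrpl52: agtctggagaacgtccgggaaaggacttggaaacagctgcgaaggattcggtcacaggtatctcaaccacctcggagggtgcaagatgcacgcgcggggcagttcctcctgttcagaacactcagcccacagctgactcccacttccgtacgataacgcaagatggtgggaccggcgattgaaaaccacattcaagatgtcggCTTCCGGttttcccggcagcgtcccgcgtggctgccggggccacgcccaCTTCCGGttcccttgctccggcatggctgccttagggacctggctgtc
Mrps6: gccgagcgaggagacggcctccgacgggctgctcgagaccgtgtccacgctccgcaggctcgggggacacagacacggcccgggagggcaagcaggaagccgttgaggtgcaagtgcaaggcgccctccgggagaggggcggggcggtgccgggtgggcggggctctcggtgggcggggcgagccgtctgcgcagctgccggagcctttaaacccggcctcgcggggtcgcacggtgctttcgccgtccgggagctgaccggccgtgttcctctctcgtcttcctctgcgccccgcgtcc
Mrpl12: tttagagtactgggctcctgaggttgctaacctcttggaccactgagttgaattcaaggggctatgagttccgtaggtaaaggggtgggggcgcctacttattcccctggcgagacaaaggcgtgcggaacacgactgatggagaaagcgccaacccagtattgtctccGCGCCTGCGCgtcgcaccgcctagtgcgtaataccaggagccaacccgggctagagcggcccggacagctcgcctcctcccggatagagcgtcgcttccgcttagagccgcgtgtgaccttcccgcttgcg
Mrpl45: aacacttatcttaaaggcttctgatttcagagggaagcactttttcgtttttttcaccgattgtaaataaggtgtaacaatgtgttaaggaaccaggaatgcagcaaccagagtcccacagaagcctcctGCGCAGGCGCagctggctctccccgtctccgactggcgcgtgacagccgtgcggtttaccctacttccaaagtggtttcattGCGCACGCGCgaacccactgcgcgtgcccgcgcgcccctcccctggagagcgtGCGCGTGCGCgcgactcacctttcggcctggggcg
Mrps12: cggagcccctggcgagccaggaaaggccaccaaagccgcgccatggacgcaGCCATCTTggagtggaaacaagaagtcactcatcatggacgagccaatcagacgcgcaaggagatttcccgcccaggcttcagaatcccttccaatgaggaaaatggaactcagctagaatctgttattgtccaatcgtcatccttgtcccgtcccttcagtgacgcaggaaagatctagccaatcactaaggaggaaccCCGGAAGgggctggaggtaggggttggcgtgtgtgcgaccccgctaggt

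In the deposited FPKM, most of the genes were high or low in the same libraries, and both groups held high and low libraries. OE 2 was above both OE 1 and OE 3 for 70 of the 76 genes (92.1%, against 41.1% of all genes tested). The library labelled Ctrl 1 and Ctrl 2 were both above Ctrl 3 for 69 genes (90.8%, against 41.0%). The median deviation of the genes from their own mean over the libraries, in log2(FPKM + 1), was -0.23, 0.22 and -0.07 in OE 1, OE 2 and OE 3. It was 0.16 in the library labelled Ctrl 1, 0.18 for Ctrl 2 and -0.20 for Ctrl 3. For all genes tested these medians stayed between -0.04 and 0.07. The library with the highest value was OE 2 for 35 genes and Ctrl 2 for 21. The library with the lowest value was OE 1 for 32 genes and Ctrl 3 for 31. OE 2, the library labelled Ctrl 1 and Ctrl 2 also had the highest total FPKM, at 775942, 732964 and 763632, against 596413 to 620702 in the others. With libraries set to equal total FPKM, the genes summed to 2204.4, 2428.5 and 2537 in OE and 2448.5, 2269.3 and 2099.3 in Ctrl libraries. OE 3 was then highest, so the order of the libraries depends on scaling. The summed neutrophil marker FPKM was 101969, 158316 and 56542 in OE 1, OE 2 and OE 3. It was 132803 in the library labelled Ctrl 1, 134907 for Ctrl 2 and 98053 for Ctrl 3. OE 2, Ctrl 2 and the library labelled Ctrl 1 were thus high in this sum and in the deposited ribosomal protein sum. OE 3 had the lowest neutrophil sum. Its ribosomal protein sum (2225 FPKM) was above those of OE 1 (1993 FPKM) and Ctrl 3 (1916 FPKM). The part of neutrophils in the shared movement was not tested.

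The median SD of a member over the 6 libraries was 0.24 in log2(FPKM + 1), against 0.25 for all genes tested. Once each library's median over the members was subtracted, the median SD was 0.12. That step was not applied to other genes, so this drop has no background. Mrps6 (0.42) and Mrpl52 (0.40) had the largest SD before that step, followed by Mrps5 (0.32), Mrpl57, Mrpl40 and Mrps11 (0.31 each). Mrps5, a small-subunit protein with a bacterial homologue, reached 12.9 FPKM in OE 2 and 11.1 FPKM in Ctrl 2, and stayed between 7.26 and 8.07 FPKM in the other 4 libraries. Mrps25 (0.07), Mrps2 (0.11), Mrps31 (0.13) and Mrpl9 (0.15) had the smallest SD. After that step the largest SDs were those of Mrps6 (0.42), Mrpl52 (0.37) and Mrpl3 (0.29). Mrpl3, a protein of the peptidyl transferase region, had 12.0, 12.3 and 13.6 FPKM in OE libraries. It had 10.01 FPKM in the library labelled Ctrl 1, 14.5 for Ctrl 2 and 14.1 for Ctrl 3, so that its lowest value fell in a library where most members were high.

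**Figure D2:**
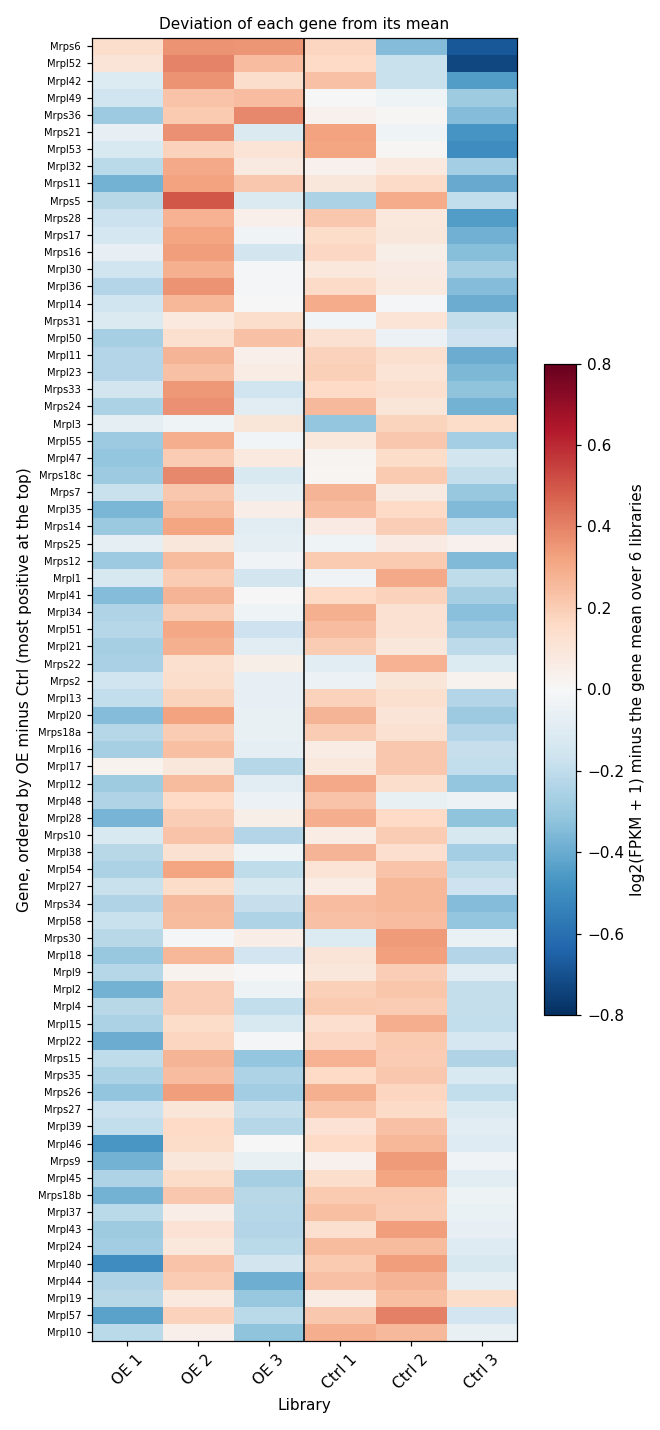
Deviation of each of the 76 genes (rows, most positive OE minus Ctrl difference at the top) from its mean over the 6 libraries, in log2(FPKM + 1), for OE 1 to 3 (left of the line) and Ctrl 1 to 3 (right). OE 1 and Ctrl 3 are mostly blue (below the mean), and OE 2, Ctrl 1 and Ctrl 2 mostly red (above), while Mrps6 and Mrpl52 at the top are red in OE and blue in Ctrl 2 and Ctrl 3.

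Between OE and Ctrl femurs, the mean summed level of the mitochondrial ribosomal protein genes differed by less than the spread between libraries. This sum was 1993, 2771 and 2225 FPKM in OE libraries, and 2639, 2549 and 1916 FPKM in Ctrl libraries, so the groups overlapped. The means were 2330 ± 400 FPKM in OE and 2368 ± 394 FPKM in Ctrl (SD, n = 3 each), a ratio of 0.984. The sum took 0.324%, 0.357% and 0.373% of all FPKM in OE libraries, against 0.360%, 0.334% and 0.309% in Ctrl libraries. The large-subunit sum was 1.93, 1.89 and 2.07 times the small-subunit sum in OE libraries, against 2.002, 2.04 and 2.08 times in Ctrl libraries. For 66 of the 76 genes, the ratio of group means was within 1.2-fold.

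In limma's test with Benjamini-Hochberg adjustment at 0.05, 0 of the 76 genes passed, as did 0 of all 12177 genes tested (0%, smallest adjusted p 0.554). Mrps6 was the 1 member (1.32%) with an unadjusted p under 0.05, against 8.20% of all genes tested. With array weights the same tool called 1394 genes and none of the 76. These weights were 1.35, 0.861 and 0.421 for OE 1, OE 2 and OE 3. They were 0.414 for the library labelled Ctrl 1, 5.82 for Ctrl 2 and 0.845 for Ctrl 3. The Ctrl side of that fit thus rests mostly on Ctrl 2. The number of members whose OE values all exceeded every Ctrl value was 0, against 4.59% of genes tested, and 0 lay below in the same sense, against 8.97%. The log2 differences (OE minus Ctrl) ran from -0.33 to 0.57 with a median of -0.05, beside a median of -0.04 for all genes tested. Of the 76 differences, 22 were positive (43.7% of all genes tested were). Scaling moved all genes alike: with libraries set to equal total FPKM without mitochondrial, haemoglobin and calprotectin genes, the median of all genes was 0.10 and that of the members 0.09. The members' median minus that of all genes was -0.01 as deposited and -0.003 under that scaling, so no direction can be given for the family. With libraries set to equal total FPKM, 4 members lay above in all OE libraries (Mrpl30, Mrpl49, Mrpl52 and Mrps6; background 4.66%) and 10 lay below (background 7.84%).

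**Figure D3:**
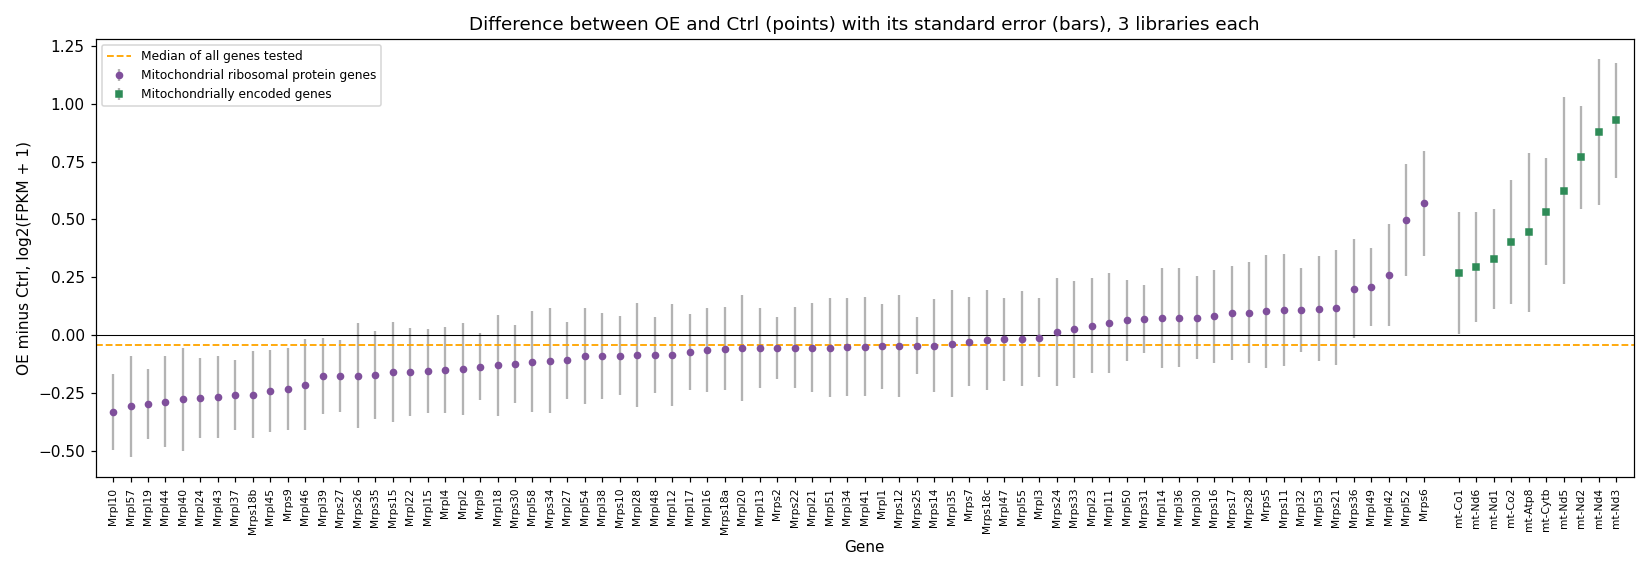
OE minus Ctrl difference in log2(FPKM + 1) for the 76 mitochondrial ribosomal protein genes (purple) and 10 mitochondrially encoded genes (green), with bars of 1 standard error and 3 libraries in each group. The dashed line marks the median of all genes tested (-0.04), near which most purple points lie, while the green points run from 0.27 to 0.93.

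By structure, 6 of the 29 large-subunit genes with a bacterial homologue had positive differences (median -0.06), as did 5 of the 21 specific to mitochondria (median -0.09). In the small subunit these were 8 of 16 with a bacterial homologue (median -0.003) and 2 of 9 specific to mitochondria (median -0.11). The 6 proteins of the central protuberance, which contacts the small subunit, had 0 positive differences (median -0.12), and those of the 4 around the peptidyl transferase centre were negative too (median -0.09). One of 5 exit-tunnel genes (median -0.16) and 1 of 3 stalk genes (median -0.09) had a positive difference. None of these genes passed the test, and the signs depend on scaling. Beside these counts, 22 of the 76 members and 43.7% of all genes tested had positive differences. Mrpl27 is in both the central protuberance and the peptidyl transferase lists, so these lists are not separate. Within the stalk, Mrpl12 had 32.1, 47.0 and 36.9 FPKM in OE libraries, against 48.7, 43.4 and 31.5 FPKM in Ctrl libraries. In the exit tunnel, Mrpl24 had 44.4, 57.5 and 46.5 FPKM in OE against 64.8, 64.6 and 50.3 FPKM in Ctrl libraries, and Mrpl23 and Mrpl45 differed by 0.04 and -0.24. Mrps12 had 29.2, 43.1 and 35.2 FPKM in OE against 41.8, 41.8 and 28.0 FPKM in Ctrl libraries. Mrpl58, a peptidyl-tRNA hydrolase built into the large subunit, had 29.7, 40.5 and 28.3 FPKM in OE against 39.9, 40.3 and 27.1 FPKM in Ctrl libraries. In each of these 4 genes the groups overlapped, and OE 1 was below OE 2. Mrps30 had 9.67, 11.3 and 11.9 FPKM in OE against 10.5, 14.7 and 10.98 FPKM in Ctrl libraries. Mrpl16 and Mrpl27, near the peptidyl transferase centre, differed by -0.06 and -0.11, less than their standard errors of 0.18 and 0.17.

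Mrps6, a small-subunit protein with a bacterial homologue (chromosome 16, 92058270 to 92112227, plus strand), had the most positive difference. It had 14.9, 17.5 and 17.4 FPKM in OE libraries, against 15.3 FPKM in the library labelled Ctrl 1, 10.3 for Ctrl 2 and 7.999 for Ctrl 3. The library labelled Ctrl 1 thus lay inside the OE range and the other 2 Ctrl libraries below it. The means were 16.6 ± 1.48 FPKM in OE and 11.2 ± 3.71 FPKM in Ctrl (SD, n = 3 each), a log2 difference of 0.57 (SE 0.23, limma adjusted p = 0.554, exact permutation p = 0.2). Without the library labelled Ctrl 1 the difference was 0.80 (limma adjusted p = 0.0581). With trimmed-mean scaling added it was 0.86 and passed (limma adjusted p = 0.0396), a setting chosen after seeing the data. Mrps6 shares its strand and part of its span with Slc5a3, which was not analysed here, so fragments of either gene could be counted for the other.

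Mrpl52, a mitochondria-specific large-subunit protein (chromosome 14, 54426909 to 54429756, plus strand), had 88.4, 108 and 97.6 FPKM in OE libraries. It had 91.8 FPKM in the library labelled Ctrl 1, 72.5 for Ctrl 2 and 49.1 for Ctrl 3, the same order of libraries as for Mrps6. The means were 98.1 ± 9.99 FPKM in OE and 71.1 ± 21.3 FPKM in Ctrl (SD, n = 3 each), a log2 difference of 0.50 (SE 0.24, limma adjusted p = 0.558). Without the library labelled Ctrl 1 it was 0.70 (limma adjusted p = 0.177). Mmp14, a membrane collagenase of bone cells, starts 1856 bp beyond Mrpl52 on the same strand. It had 106, 63.0 and 44.7 FPKM in OE libraries, 82.9 in the library labelled Ctrl 1, 20.01 for Ctrl 2 and 19.1 for Ctrl 3. The difference of Mmp14 was 1.05 (SE 0.60, limma adjusted p = 0.564). Other neighbours were unlike it: Slc7a7, next to Mrpl52, differed by 0.01, Atp5o, next to Mrps6, by 0.02, and Ube2n, next to Mrpl42, by -0.09. Socs2, on the other side of Mrpl42, differed by 0.98 (limma adjusted p = 0.554). Kcne2, next to Mrps6, was under the filter. Whether neighbours move together was not tested.

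Mrpl42, also specific to mitochondria, had 62.6, 87.0 and 74.5 FPKM in OE libraries, against 79.8 in the library labelled Ctrl 1, 59.6 for Ctrl 2 and 49.2 for Ctrl 3. The log2 difference was 0.26 (SE 0.22, limma adjusted p = 0.666). Like Mrps6 and Mrpl52 it was high in the library labelled Ctrl 1, as was the osteoblast and osteocyte marker sum given above. The summed FPKM of 9 skeletal muscle markers was 1604, 1274 and 1595 in OE libraries, 1531 in the library labelled Ctrl 1, 243 for Ctrl 2 and 371 for Ctrl 3. That of 6 cartilage markers was 340, 513 and 250 in OE libraries, 322 in the library labelled Ctrl 1, 15.2 for Ctrl 2 and 20.6 for Ctrl 3. None of the muscle or cartilage markers was at 0, and the part of these tissues in the 3 genes was not tested. Without the library labelled Ctrl 1, Mrpl42, Mrpl52 and Mrps6 had all OE values above both Ctrl values (background 18.3%), and Mrpl19 and Mrpl3 had all OE values below both (background 18.6%). In that comparison limma called 518 genes higher (4.25%) and 79 lower (0.649%) in OE, and 0 of the 76 members.

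**Figure D4:**
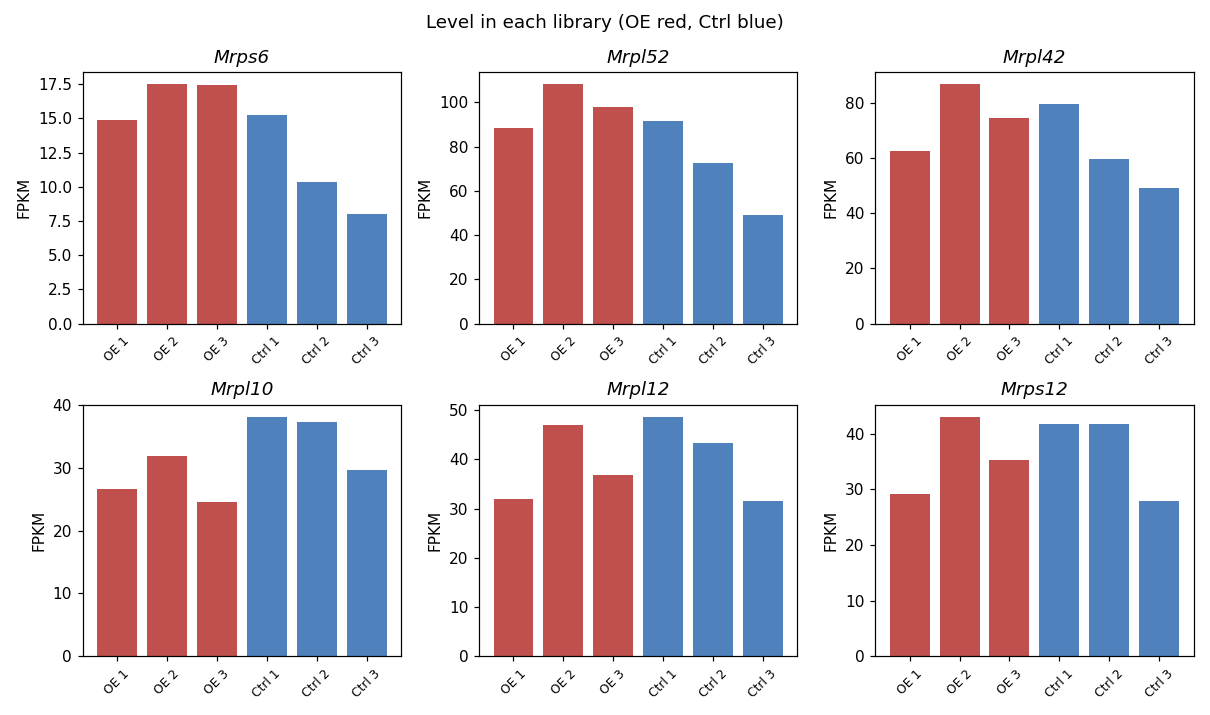
FPKM of 6 mitochondrial ribosomal protein genes in each OE (red) and Ctrl (blue) library, one panel per gene with its own axis. Mrps6, Mrpl52 and Mrpl42 are lowest in Ctrl 2 and Ctrl 3, whereas Mrpl12 and Mrps12 vary by library in both groups and Mrpl10 is highest in Ctrl 1 and Ctrl 2.

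Mrpl10, the stalk anchor (chromosome 11, 97041560 to 97049213, plus strand), had the most negative difference. It had 26.6, 31.8 and 24.6 FPKM in OE libraries, against 38.1, 37.2 and 29.7 FPKM in Ctrl libraries, where Ctrl 3 was below OE 2. The means were 27.7 ± 3.75 FPKM in OE and 35.0 ± 4.62 FPKM in Ctrl (SD, n = 3 each), a log2 difference of -0.33 (SE 0.16, limma adjusted p = 0.560). Other negative differences were those of Mrpl57 (-0.31), Mrpl19 (-0.30), Mrpl44 (-0.29), Mrpl40 (-0.28), Mrpl24 (-0.27) and Mrpl37 (-0.26). Mrpl19 had 5.84, 7.45 and 5.49 FPKM in OE libraries, against 7.33, 8.44 and 7.84 FPKM in Ctrl libraries. Only OE 2 overlapped the Ctrl range, and Mrpl19 overlaps another gene, Gcfc2. Among the remaining positive differences, Mrpl49 had 15.2, 20.2 and 20.5 FPKM in OE against 17.2, 16.7 and 13.9 FPKM in Ctrl libraries. Mrps36, whose product is now assigned to the oxoglutarate dehydrogenase complex, had 26.7, 38.4 and 43.3 FPKM in OE against 33.8, 33.2 and 25.8 FPKM in Ctrl libraries. Mrps36 has 8 close pseudogene copies in the annotation, the most of any member. In all, 24 members have at least 1 such copy, with at least 90% identity over at least 200 nucleotides.

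The genes of mitochondrial DNA, which the mitochondrial ribosome translates, ranked the libraries differently from the ribosomal protein genes. Their 10 measured protein-coding members summed to 43443, 35647 and 37663 FPKM in OE libraries, against 26200, 28968 and 29104 FPKM in Ctrl libraries, and these groups did not overlap. The means were 38918 ± 4046 FPKM in OE and 28091 ± 1639 FPKM in Ctrl (SD, n = 3 each). The largest part of each sum was mt-Atp8, with 17302, 14437 and 15666 FPKM in OE libraries against 10094, 11988 and 12813 FPKM in Ctrl libraries. The genes mt-Atp6, mt-Co3 and mt-Nd4l are not among the 10, so the sum is not the whole mitochondrial output. OE 1 had the highest of these sums and the second lowest ribosomal protein sum, whereas the library labelled Ctrl 1 had the lowest mitochondrial sum and the second highest ribosomal protein sum. The sum of mitochondrially encoded genes was 21.8, 12.9 and 16.9 times the ribosomal protein sum in OE libraries. It was 9.93 times in the library labelled Ctrl 1, 11.4 times for Ctrl 2 and 15.2 times for Ctrl 3, so OE 2 lay below Ctrl 3. Mean ratios were 17.2 ± 4.48 in OE and 12.2 ± 2.72 in Ctrl (SD, n = 3 each).

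**Figure D5:**
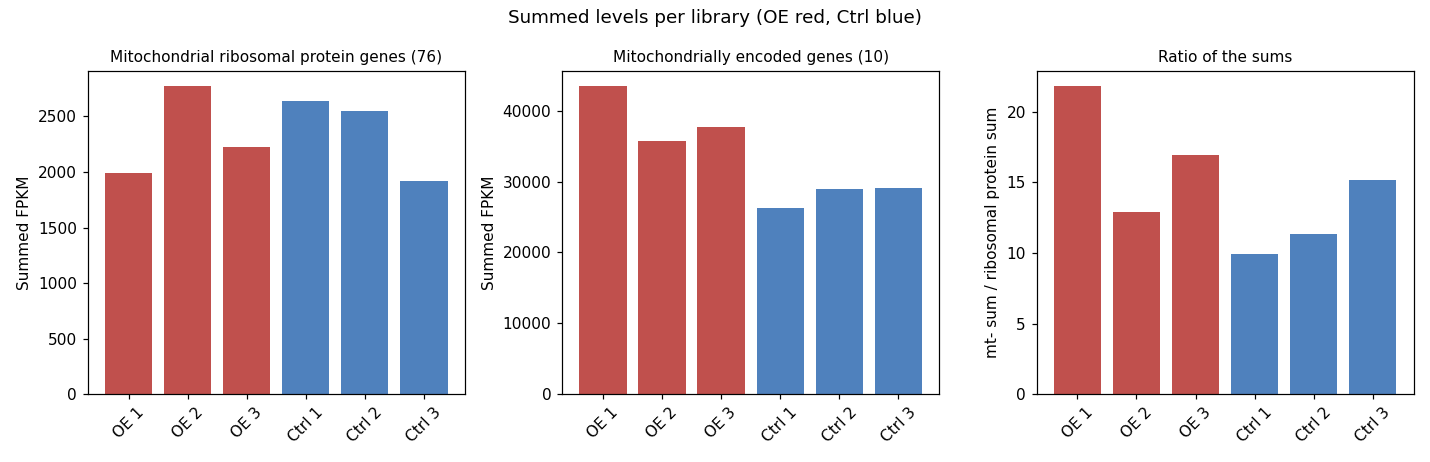
Summed FPKM of the 76 nuclear mitochondrial ribosomal protein genes (left), of the 10 mitochondrially encoded genes (middle) and their ratio (right) in each OE (red) and Ctrl (blue) library. The left sums interleave, the middle sums are 35647 or more in OE and 29104 or less in Ctrl, and the ratio overlaps in OE 2 and Ctrl 3.

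For 8 of the 10 mitochondrially encoded genes every OE value exceeded each Ctrl value (background 4.59%), and all 10 differences were positive, with a median of 0.49. These genes share mitochondrial DNA and were measured in the same libraries, so they are not 10 independent observations. None passed limma's test after adjustment, and 3 had an unadjusted p under 0.05 (8.20% of all genes tested did). With array weights 2 of the 10 passed (smallest limma adjusted p 0.0377), among 1394 genes in all, with the Ctrl side resting mostly on Ctrl 2. Under equal total FPKM without the library labelled Ctrl 1, 1 passed (limma adjusted p = 0.0499). mt-Nd3, a subunit of complex I, had 1835, 1744 and 1477 FPKM in OE libraries against 1053, 949 and 684 FPKM in Ctrl libraries, a difference of 0.93 (SE 0.25, limma adjusted p = 0.554). mt-Nd2, of the same complex, had 1326, 888 and 946 FPKM in OE libraries, against 620.0, 585 and 619.7 FPKM in Ctrl libraries. mt-Nd4 had 4374, 2507 and 3336 FPKM in OE libraries, against 1526, 1659 and 2324 FPKM in Ctrl libraries. The smallest of the 10 differences was that of mt-Co1, the core of cytochrome c oxidase, at 0.27. mt-Nd5 and mt-Nd6 overlapped between the groups. With libraries set to equal total FPKM the non-overlapping genes numbered 4 of 10, and the sums were 48061, 31237 and 42937 in OE against 24305, 25793 and 31882 in Ctrl libraries, which overlap. The summed FPKM of 7 osteoclast markers, none at 0, was 3719, 2656 and 1300 in OE libraries, 3163 in the library labelled Ctrl 1, 1031 for Ctrl 2 and 993 for Ctrl 3. The muscle marker sums given above were 1274 or more in OE libraries and 1531 or less in Ctrl libraries. OE 3 stood apart in the sums of 9 erythroid markers (45393 FPKM, against 1399 to 10046 in the other 5 libraries) and 9 B-cell markers (531 FPKM, against 59.9 to 125). The part of osteoclasts, muscle or blood cells in the levels of mitochondrially encoded genes was not tested.

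The 4 further mitoribosome proteins tested with other symbols (Dap3, Ptcd3, Chchd1 and Gadd45gip1) had a median difference of -0.02, with 2 positive. Dap3, the small-subunit GTP-binding protein, had 37.0, 47.9 and 43.0 FPKM in OE libraries, against 51.6, 52.8 and 40.4 FPKM in Ctrl libraries. In the lists that follow, counts stand beside 43.7% positive differences and 8.20% with an unadjusted p under 0.05 among all genes tested. Of 25 assembly factors tested, 9 had positive differences (median -0.05), 0 were called and 3 had an unadjusted p under 0.05. These were Ddx28 (-0.43) and Mpv17l2 (-0.46), both known for large-subunit assembly, and Trub2 (-0.47), a pseudouridine synthase. Ddx28 had 5.63, 7.19 and 5.46 FPKM in OE libraries against 7.47, 9.55 and 8.56 FPKM in Ctrl libraries, which did not overlap. Of 15 translation factors 6 had positive differences (median -0.05), 0 were called and 1 had an unadjusted p under 0.05. It was Mtrf1l, a release factor, with 4.09, 4.26 and 4.66 FPKM in OE against 3.52, 3.06 and 3.09 FPKM in Ctrl libraries, again without overlap. Slirp, an RNA-binding protein that stabilizes mitochondrial messages, had 26.0, 34.4 and 23.1 FPKM in OE against 24.9, 19.4 and 12.7 FPKM in Ctrl libraries, with overlap.

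Of 16 mitochondrial tRNA synthetases 4 had positive differences (median -0.09), 0 were called and 2 had an unadjusted p under 0.05, beside the same 43.7% and 8.20% of all genes tested. Lars2, the leucyl-tRNA synthetase, had 415, 723 and 320 FPKM in OE libraries, against 1713, 1561 and 799 FPKM in Ctrl libraries. Its difference was -1.49 (SE 0.41, limma adjusted p = 0.554), and the groups did not overlap. The other 15 synthetases averaged 1.44 to 14.3 FPKM. Whether the far higher values of Lars2 come from its own transcripts was not tested, so its level and difference are uncertain. Sars2 had 5.15, 6.77 and 7.13 FPKM in OE libraries, against 8.85, 9.69 and 8.09 FPKM in Ctrl libraries. Its divergent partner Mrps12, given above, overlapped between the groups, and the difference between the 2 genes was not tested. Of 9 genes that transcribe or copy mitochondrial DNA 4 had positive differences (median -0.05), and of 7 nuclear regulators 2 did (median -0.11), with 0 called in either list. Twnk, the helicase of mitochondrial DNA copying, had 3.69, 3.88 and 4.08 FPKM in OE against 3.50, 3.64 and 3.55 FPKM in Ctrl libraries, without overlap and with a difference of 0.10. Among the regulators, Esrra, a nuclear receptor that drives genes of oxidative metabolism, had 18.2, 22.0 and 15.8 FPKM in OE against 25.4, 24.6 and 21.5 FPKM in Ctrl libraries. Myc, known to raise ribosome production, had 32.4, 33.8 and 37.6 FPKM in OE against 42.6, 41.4 and 39.0 FPKM in Ctrl libraries, which did not overlap.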

How the data were processed

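RNA sequencing gave 1 table for each of 3 OE and 3 Ctrl libraries, grouped by title. Per the file headers the deposited values are FPKM for each gene, and there are no counts, so the depth is unknown. Per the submitters' processing notes TopHat2, Cufflinks, DESeq and mm10 were used; the sources used here give neither roles nor versions. FPKM is relative to all fragments of a library, so abundant genes lower the rest. Of 21606 Ensembl rows, 21249 matched a GENCODE M21 symbol.

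Differences are OE minus Ctrl in log2(FPKM + 1), which understates changes of low genes. They were fitted with limma 3.58.1 (lmFit, eBayes with trend; R 4.3.3) over the 12177 genes that reached 1 FPKM in 3 or more libraries, with Benjamini-Hochberg adjustment and a threshold of 0.05. The planned design allowed for counts, and FPKM required limma. Single values were compared by an exact two-sided permutation test. Tables used Python 3.11.15 with pandas 2.3.3 and scipy 1.17.1.

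The members and gene lists were chosen with earlier results of these data known. Named genes were the extremes of mean level, difference, p and SD among members, 16 fixed names, and the 3 smallest p in each other list. Mrpl30 and genes next to named members were added after their values were seen. Alternatives were scaling, filters, pseudocount, eBayes without trend, array weights, a block for the replicate number, and leaving libraries out.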

Additional observations from a re-analysis of the deposited data

How the results depend on the processing

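Over 18 other settings the number of genes called in all moved away from 0 in 5: 1394 with array weights, 597 without the library labelled Ctrl 1, and, added after seeing the data, 317 and 599 without it under equal total FPKM and trimmed-mean scaling, and 1388 without it and OE 3. The array weights were highest for Ctrl 2, at 5.82. Leaving out 1 library gave 0 to 597. Among the 76 members, 1 was called when the library labelled Ctrl 1 was left out under trimmed-mean scaling and 1 without it and OE 3; both were Mrps6 (limma adjusted p = 0.0396 and 0.0441). The members' median difference ran from -0.19 to 0.09, and 23 of 37 named members had differences of both signs without being called. The median of the mitochondrially encoded genes ran from 0.39 (with either OE 1 or the library labelled Ctrl 1 left out) to 0.65 under equal total FPKM without mitochondrial, haemoglobin and calprotectin genes. Same-numbered libraries correlated at 0.442, 0.0866 and 0.311 in their deviations, and libraries of unlike number at -0.62 to 0.416. Whether the numbers pair the libraries is not known. With the replicate block 0 genes and 0 members were called, and the members' median stayed at -0.05. The smallest limma adjusted p over all genes was 0.191 with the block, against 0.554 without it. The 2 Ctrl libraries left without the library labelled Ctrl 1, and the unknown depth, limit precision.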
